A study of Mus musculus with 9 samples.

Results

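The report concerns 5 genes, Ccdc73, Sgms2, Tor1aip2, Erlin2 and Tmem123, whose mRNA in C2C12 mouse myoblasts was about 2-fold lower after an siRNA against Cugbp1 than after a control siRNA at each of 3 times. They are 5 of the 9864 genes that passed a filter on dim signal, out of 19938 named genes on the array, and are covered by 7 of its 35556 probe sets. The genes were selected on the difference between Cugbp1 siRNA and control siRNA, so that difference is given for them as a description with no test. Celf1, the current symbol of Cugbp1, and Sorbs2 were the other 2 genes with a mean log2 difference under −1, and Sorbs2 is not among the 5.

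The cells, a myoblast line grown in medium with serum, received control, Cugbp1 or Mbnl1 siRNA and no other agent than actinomycin D, which blocks transcription. It was given at 5 ug/ml to all groups, and total RNA was taken at 0, 2.5 and 5 h after its addition. A single Affymetrix whole-transcript array was run per siRNA at each time, 9 in all, so there were 3 arrays per siRNA and 3 per time. No combination was repeated and the labels do not say that arrays came from separate cultures, so all p-values measure a difference only against the siRNA-by-time variation that an additive model leaves. No source used here gives the siRNA sequences or their number per target, so an effect of an siRNA on its target and on other mRNAs cannot be told apart. In bulk RNA, fewer cells with an mRNA and less of it per cell cannot be told apart either.

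CELF1, the product of Cugbp1, binds GU-rich stretches in mRNAs, and is known as a splicing regulator and as a factor that brings deadenylases to its targets and so promotes their decay. In muscle it often acts against MBNL1 on the same exons, and the balance of the pair is disturbed in myotonic dystrophy. The study asks how loss of either protein changes the decay of mRNAs once transcription is stopped.

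Values are log2 of the deposited intensity. Array medians lay between 105 and 113 in intensity, and log2 values of any 2 arrays correlated across probe sets with r between 0.980 and 0.995. As a check of the labels, Cugbp1 siRNA left Celf1 mRNA at 30.9%, 22.1% and 21.6% of control at 0, 2.5 and 5 h by its brighter probe set, and at 27.5%, 23.4% and 24.1% by another. Mbnl1 siRNA left Mbnl1 mRNA at 22.0%, 18.3% and 15.9%. All 7 myoblast markers examined (among them Myod1, Myf5 and Pax7) were above the filter, which was 7.385 on the log2 scale. Of 3 cartilage and bone markers 1, Col2a1, was above it. None of 4 endothelial or 4 adipocyte markers was, nor were 4 of 5 leukocyte markers, the exception being Cd68. The summed intensity of all 5 leukocyte markers was 527 to 606 in control, 594 to 672 in Cugbp1 siRNA and 922 to 1134 in Mbnl1 siRNA arrays. The share of Cd68 in these sums was not separated, and their part in the results was not tested.

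Promoter windows are shown for the members because their mRNAs were low together. RefSeq (build GRCm38.p6) listed start sites for 4 of the 5 genes: 1 for Ccdc73, 6 for Sgms2, 5 for Tor1aip2 and 2 for Tmem123; Erlin2 was not matched. Each window runs from 200 bases before the start site to 20 bases from it on, 220 bases in all, and is written 5′ to 3′ on the strand of the gene. Capitals mark matches on either strand of 6 short motifs searched in every window: TATAAA (the TATA box), GGGCGG (the core bound by SP1), CCAAT (bound by NF-Y), the E-box CACGTG, the E-box CAGCTG that myogenic factors favour, and TGACG (part of the cyclic AMP response element). The first listed start of each matched gene is shown, with the last start of Tor1aip2, where CACGTG and TGACG overlap.
Ccdc73, chr2:104886124-104886343, plus strand: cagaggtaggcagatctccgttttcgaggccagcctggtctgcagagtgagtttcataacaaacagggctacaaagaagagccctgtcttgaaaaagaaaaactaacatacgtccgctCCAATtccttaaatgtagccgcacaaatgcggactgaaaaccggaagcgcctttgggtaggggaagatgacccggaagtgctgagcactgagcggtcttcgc
Sgms2, chr3:131491424-131491643, minus strand: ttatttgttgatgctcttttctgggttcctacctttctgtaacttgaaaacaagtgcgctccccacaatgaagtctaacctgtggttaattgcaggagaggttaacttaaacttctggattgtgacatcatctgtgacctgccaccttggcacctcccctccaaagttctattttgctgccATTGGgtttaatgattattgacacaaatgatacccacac
Tor1aip2 first start, chr1:156035464-156035683, plus strand: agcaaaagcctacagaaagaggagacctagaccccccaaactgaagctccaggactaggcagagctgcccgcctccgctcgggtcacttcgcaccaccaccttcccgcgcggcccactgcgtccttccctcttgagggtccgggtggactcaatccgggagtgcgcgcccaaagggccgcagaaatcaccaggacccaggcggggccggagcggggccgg
Tor1aip2 last start, chr1:156040661-156040880, plus strand: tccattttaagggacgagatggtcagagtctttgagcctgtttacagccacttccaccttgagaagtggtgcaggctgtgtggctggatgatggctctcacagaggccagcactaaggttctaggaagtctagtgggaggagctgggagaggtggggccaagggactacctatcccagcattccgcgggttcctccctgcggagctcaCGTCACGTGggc
Tmem123, chr9:7763877-7764096, plus strand: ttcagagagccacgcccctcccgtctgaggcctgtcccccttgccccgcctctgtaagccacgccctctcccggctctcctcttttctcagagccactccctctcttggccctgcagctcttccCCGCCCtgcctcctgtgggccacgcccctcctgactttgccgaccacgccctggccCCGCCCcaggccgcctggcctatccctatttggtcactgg

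The windows had no motif in common. GGGCGG was in 5 of the 14 member windows, from 3 genes, and in 32.6% of the 32851 windows of all genes. Windows of the same gene can overlap, as those of Tmem123 and some of Tor1aip2 do, so a match can count more than once. CCAAT was in 3 member windows, those of Ccdc73 and of the first and last starts of Sgms2, and in 31.0% of all windows. CACGTG was in 2 member windows against 5.81% of all, CAGCTG in 1 against 12.1%, TGACG in 1 against 17.3%, and TATAAA in 0 against 10.5%. The windows shown differed in base composition too: 42.3% G and C in Sgms2, 50.9% in Ccdc73, 66.8% at the first and 57.3% at the last start of Tor1aip2, and 68.2% in Tmem123, beside a median of 53.2% over all windows. A match is a description of the letters and not a site of binding.

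Sgms2 encodes sphingomyelin synthase 2, which makes sphingomyelin at the plasma membrane by moving phosphocholine onto ceramide. Its log2 level in control arrays was 10.16, 10.12 and 9.97 at 0, 2.5 and 5 h. In Cugbp1 siRNA arrays it was 9.14, 8.84 and 8.60, and in Mbnl1 siRNA arrays 10.29, 10.28 and 10.16. The 3 Cugbp1 siRNA arrays were all below the rest, while control and Mbnl1 siRNA arrays overlapped. Under Cugbp1 siRNA the mRNA was at 49.2%, 41.3% and 38.7% of control at the successive times, on average −1.22 ± 0.07 in log2 (here and later the value after ± is the SE of the fit, with n = 3 arrays per siRNA), or 2.33-fold.

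Ccdc73 encodes a coiled-coil protein whose function is little known. Its level was 8.86, 9.11 and 9.23 in control, 7.75, 7.89 and 7.73 in Cugbp1 siRNA and 8.47, 8.48 and 8.58 in Mbnl1 siRNA arrays. The 3 siRNAs gave 3 separate ranges, with control highest and Cugbp1 siRNA lowest. Among the 5 it had the largest mean difference, −1.27 ± 0.07, or 2.42-fold, and its level under Cugbp1 siRNA went from 46.5% of control at 0 h to 43.0% and 35.3%.

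Erlin2 encodes an endoplasmic reticulum protein of the SPFH family, which with its relative erlin-1 forms a complex that marks inositol trisphosphate receptors for degradation and takes part in sterol control. Its level was 10.10, 10.25 and 10.33 in control, 9.10, 9.10 and 9.21 in Cugbp1 siRNA and 9.67, 9.70 and 9.83 in Mbnl1 siRNA arrays. Again the 3 siRNAs did not overlap and stood in the same order as for Ccdc73. The difference under Cugbp1 siRNA was −1.09 ± 0.04, with 50.03%, 45.2% and 46.0% of control at the 3 times.

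Tmem123 encodes porimin, a mucin-like glycoprotein of the cell surface. Its level was 11.49, 11.69 and 11.70 in control, 10.51, 10.55 and 10.68 in Cugbp1 siRNA and 11.29, 11.40 and 11.52 in Mbnl1 siRNA arrays. The Cugbp1 siRNA arrays were below all others, and the highest Mbnl1 siRNA array lay just above the lowest control array. The difference under Cugbp1 siRNA was −1.05 ± 0.04, with 50.5%, 45.3% and 49.2% of control.

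Tor1aip2 encodes LULL1, a membrane protein of the endoplasmic reticulum that activates torsin ATPases. By its brightest probe set (10350800) the level was 9.95, 9.88 and 9.59 in control, 8.95, 8.49 and 8.67 in Cugbp1 siRNA and 9.62, 9.46 and 9.38 in Mbnl1 siRNA arrays. The Cugbp1 siRNA arrays were lowest, and the Mbnl1 siRNA array at 0 h lay above the control array at 5 h. The difference under Cugbp1 siRNA was −1.10 ± 0.08, with 50.1%, 38.2% and 53.0% of control, the widest spread over time among the 5 (SD 0.25 on the log2 scale).

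**Figure D1:**
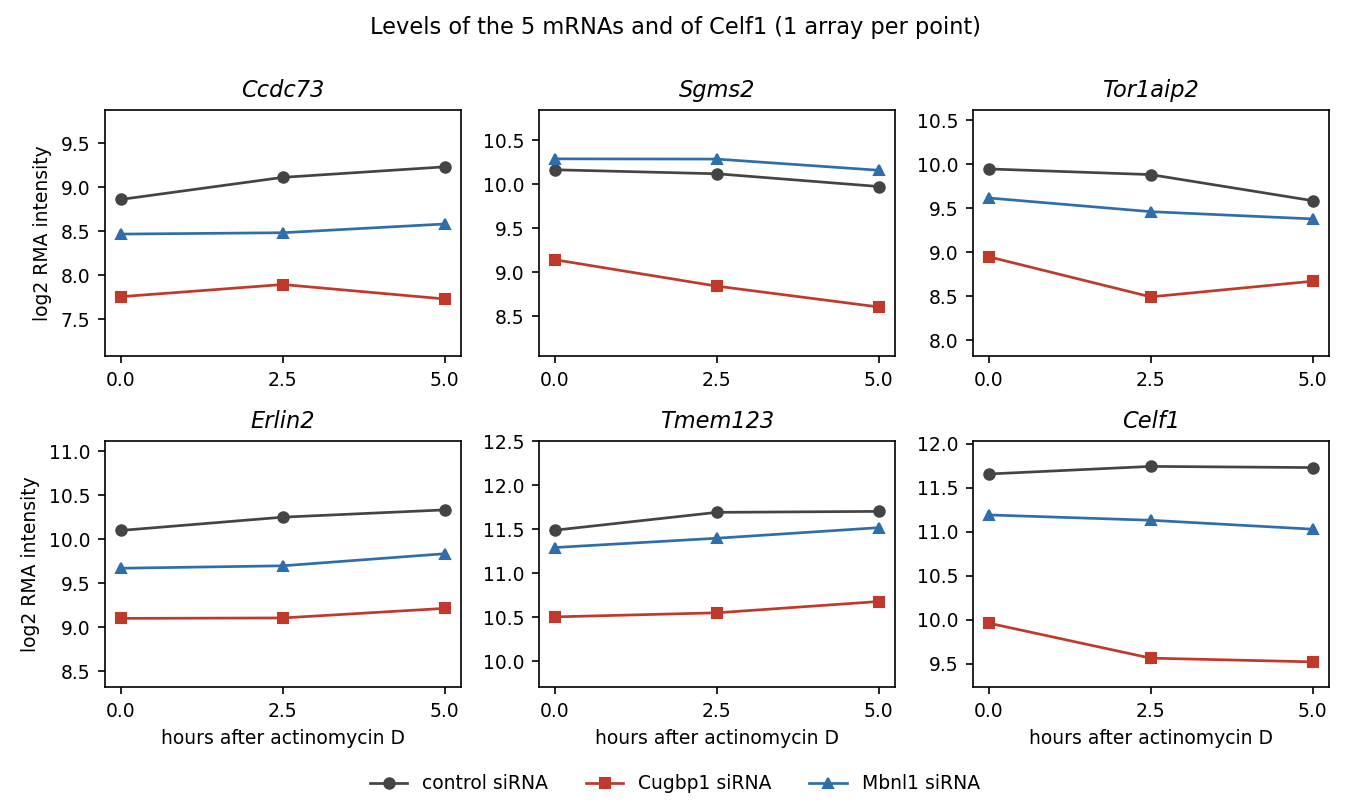
Log2 intensity (vertical axis) against hours after actinomycin D (horizontal axis) for the 5 mRNAs and for Celf1; each point is 1 array and each panel spans its own range of levels. The Cugbp1 siRNA arrays (squares) are lowest in every panel, and the Mbnl1 siRNA arrays (triangles) lie between the others except for Sgms2, where they lie at or above control.

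The other probe sets of Tor1aip2 gave much smaller differences. Probe set 10350792 read 8.67, 8.58 and 8.40 in control, 8.54, 8.54 and 8.33 in Cugbp1 siRNA and 9.03, 8.82 and 8.60 in Mbnl1 siRNA arrays. Its difference under Cugbp1 siRNA was −0.08 (SD 0.05 over 3 times), or 94.5% of control, and under Mbnl1 siRNA it was higher than control by 0.26 (SD 0.08), opposite in sign to probe set 10350800. Probe set 10350790 read 7.95, 7.82 and 7.98 in control, 7.73, 7.76 and 7.49 in Cugbp1 siRNA and 7.82, 7.92 and 7.82 in Mbnl1 siRNA arrays, a difference of −0.26 (SD 0.22) under Cugbp1 siRNA. The mean of all 3 probe sets differed by −0.48. Thus the 2-fold difference belongs to 1 probe set and not to all that carry the symbol. The platform annotation lists 1 RefSeq mRNA for probe set 10350800, which it also lists for the other 2 probe sets; it lists 5 for 10350792 and 2 for 10350790, and no source used here gives the stretch of the transcripts that each reads.

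**Figure D2:**
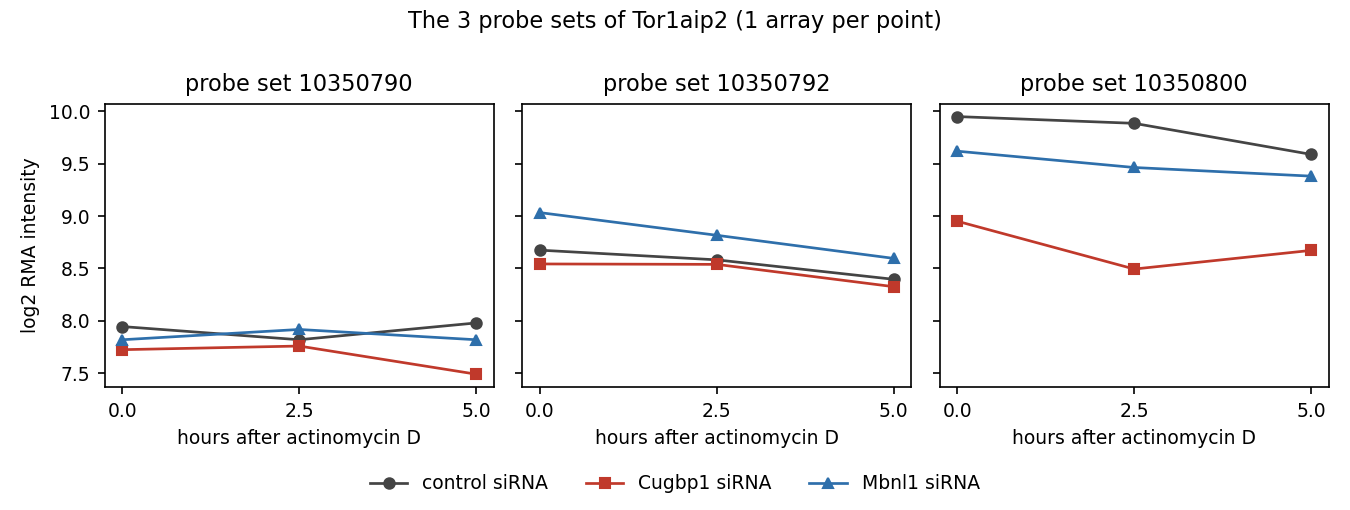
Log2 intensity against hours after actinomycin D for the 3 probe sets of Tor1aip2, on 1 vertical scale, 1 array per point. Control (circles) and Cugbp1 siRNA (squares) are about 2-fold apart for 10350800 (right) and lie within 0.13 of each other for 10350792 (middle); levels of different probe sets are not comparable.

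On the edge of the selection, Sorbs2 was at −1.001 ± 0.053 and Tmem123 at −1.05 just inside a log2 difference of −1. Just outside it were Tmprss11f at −0.98 ± 0.07, the histone gene H4c4 at −0.96 ± 0.25, Ehd4 at −0.92 ± 0.10 and Slbp, which encodes the protein that binds the stem-loop of histone mRNAs, at −0.91 ± 0.05. At least 0.9 below control at every time were 7 genes (Celf1, Sorbs2 and the 5), and at least 0.9 above it were 8. H4c4 differed by only −0.15 at 0 h and then by −1.18 and −1.55. Among the 9864 genes the median difference under Cugbp1 siRNA was 0.011 and the median size 0.075. By limma with Benjamini-Hochberg adjustment 8.67% of the genes were called lower and 10.5% higher at an adjusted p under 0.05, shares from which nothing is read for the 5.

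The decay of the 5 was next compared. Tor1aip2 is read by probe set 10350800 in all that follows on time, unless the mean of its probe sets is named. In control cells Sgms2 and Tor1aip2 mRNA fell over 5 h of transcription block, by 0.19 and 0.36 on the log2 scale. Ccdc73, Erlin2 and Tmem123 were higher at 5 h than at 0 h by 0.37, 0.23 and 0.21. The other Tor1aip2 probe sets changed in control by −0.28 (10350792) and 0.03 (10350790), so the fall was not seen by all that carry the symbol. Such rises are relative, since RMA gives all arrays 1 distribution: an mRNA that is lost more slowly than most comes out higher. The median over all genes of the change from 0 to 5 h was 0.015 in control, 0.047 in Cugbp1 siRNA and 0.011 in Mbnl1 siRNA arrays.

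Over the 3 siRNAs, 4 of the 5 passed the test at 5 h against 0 h, 2 in each direction. The test shares the control and Cugbp1 siRNA arrays with the selection, which asked for a difference at every time. That rule can favour genes with little siRNA-by-time variation, and so a small SE. The p-values of the 5 are therefore not independent of the selection, here and at 2.5 h. Sgms2 fell by 0.29 ± 0.07 (limma adjusted p = 0.00917) and Tor1aip2 by 0.29 ± 0.08 (adjusted p = 0.0138). Tmem123 rose by 0.20 ± 0.04 (adjusted p = 0.00264) and Erlin2 by 0.17 ± 0.04 (adjusted p = 0.00612). Each had the same sign in all 3 siRNAs, as did Sgms2 and, by probe set 10350800, Tor1aip2. Ccdc73 differed by 0.15 ± 0.07, which did not pass (adjusted p = 0.0989). Of all genes tested 32.8% fell and 35.6% rose, and 4 of 5 is near that background.

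The scale sets the sign of the rises. With every array shifted to an equal median of 54 cytosolic ribosomal protein genes, the median change of all genes at 5 h went from 0.035 to −0.195, and Erlin2 and Tmem123 then came out at −0.06 and −0.03 and were not called (adjusted p = 0.343 and 0.688), while Sgms2 and Tor1aip2 fell by 0.52 each. Relative to the median gene the changes are equal on both scales by construction, since the shift moves all genes of an array alike. They were 0.14 for Erlin2, 0.17 for Tmem123, 0.12 for Ccdc73, −0.32 for Sgms2 and −0.33 for Tor1aip2. The share of higher among all calls at 5 h was 52.1% on the deposited scale and 5.51% on the ribosomal one. The Tor1aip2 call was lost without the control array at 5 h (adjusted p = 0.0662) or without the Cugbp1 siRNA array at 0 h (0.0623), and Ccdc73 passed without the Cugbp1 siRNA array at 5 h (0.24, adjusted p = 0.0148).

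At 2.5 h Tmem123 was the 1 member that passed, with a rise of 0.12 ± 0.04 (limma adjusted p = 0.0445); 47.4% of all genes passed. With equal ribosomal protein medians Tmem123 was at −0.005 and not called (adjusted p = 0.949), and Tor1aip2 (−0.35, adjusted p = 0.0109) and Sgms2 (−0.24, adjusted p = 0.0293) were called in its place. On the deposited scale Tor1aip2 was at −0.23 ± 0.08 (adjusted p = 0.0538). It passed without the control array at 2.5 h (−0.32, adjusted p = 0.0207) or at 5 h (adjusted p = 0.0454), without the Cugbp1 siRNA array at 5 h (adjusted p = 0.0487), with the mean of its probe sets (−0.11, adjusted p = 0.0292) and with an intensity trend in the variance prior (adjusted p = 0.0319). Ccdc73, Sgms2 and Erlin2 were at 0.13, −0.12 and 0.06. The Tmem123 call at 2.5 h was lost, with adjusted p from 0.0507 to 0.208, with any 1 of 8 arrays left out, and held only without the Cugbp1 siRNA array at 0 h.

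**Figure D3:**
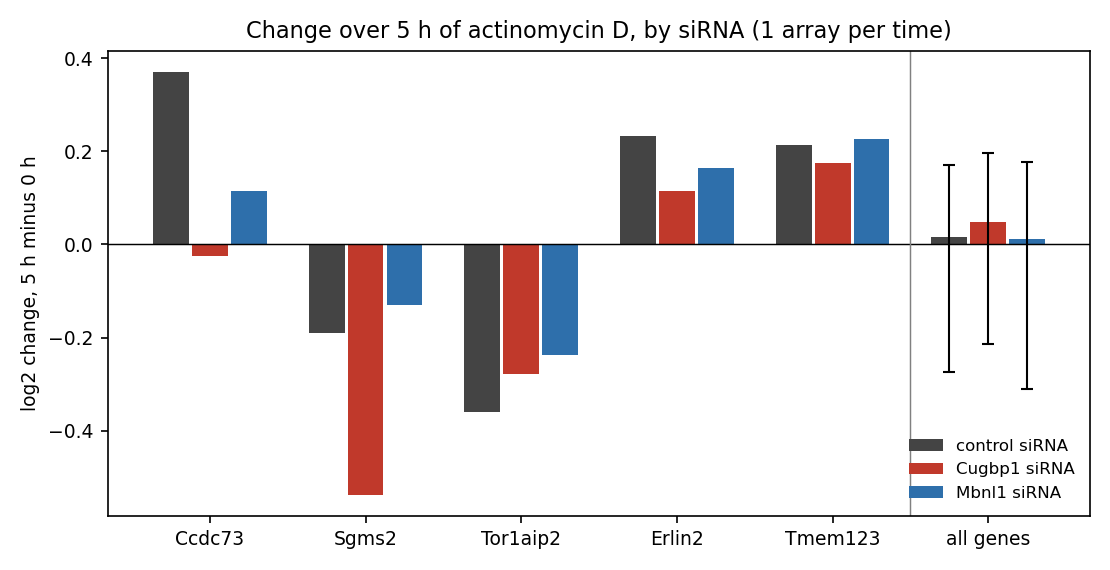
Change in log2 intensity from 0 to 5 h of actinomycin D (vertical axis) for each of the 5 mRNAs and each siRNA, 1 array per time; bars start at 0. At the right are the medians of all 9864 genes, with lines from the 25th to the 75th percentile. Sgms2 and Tor1aip2 (probe set 10350800 only) go down in all 3 siRNAs. Erlin2 and Tmem123 go up in all 3 as deposited, but not with equal ribosomal protein medians.

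Under Cugbp1 siRNA the changes from 0 to 5 h were −0.54 for Sgms2, −0.28 for Tor1aip2, −0.03 for Ccdc73, 0.11 for Erlin2 and 0.17 for Tmem123. The corresponding difference in hourly slope from control, fitted as a straight line in hours, was −0.079 ± 0.024 log2 units per h for Ccdc73 and −0.069 ± 0.018 for Sgms2. It was −0.024 ± 0.018 for Erlin2, −0.008 ± 0.020 for Tmem123 and 0.017 ± 0.043 for Tor1aip2. Over all genes its median was 0.0094, with 5% of genes below −0.037 and 5% above 0.058. Ccdc73 and Sgms2 thus lay below the 5th percentile and the other 3 within the middle 90%; these slopes come from the arrays used for the selection and are a description only. At 0 h, before any block of transcription, the 5 were at 46.5% to 50.5% of control, which the selection asked for at every time.

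Mbnl1 siRNA was not used to select the 5, but its comparison uses the same 3 control arrays as the selection, so it is not independent of it: a control array that reads high lowers both differences. Ccdc73 differed from control by −0.56 ± 0.07 (limma adjusted p = 0.000434), and was at 76.1%, 64.7% and 63.8% of control at 0, 2.5 and 5 h. Erlin2 differed by −0.49 ± 0.04 (adjusted p = 3.65e-05) and was at 74.3%, 68.2% and 70.8%. Tor1aip2 by probe set 10350800 differed by −0.32 ± 0.08 (adjusted p = 0.0116), and Tmem123 by −0.23 ± 0.04 (adjusted p = 0.00212). All 4 were below control at each of the 3 times. Sgms2 was above control at each time, by 0.12, 0.17 and 0.18, and the mean of 0.16 ± 0.07 did not pass (adjusted p = 0.102).

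So 4 of 5 were called lower under Mbnl1 siRNA, where 31% of all genes were called lower and 24% higher; since the control arrays are shared, the count is no support. The Tor1aip2 call was lost without the control array at 2.5 h (−0.22, adjusted p = 0.0526) and with the mean of its probe sets (−0.04, adjusted p = 0.346). Sgms2 passed as higher by limma without the 0 h array of Cugbp1 siRNA (adjusted p = 0.0122) or of Mbnl1 siRNA (0.23, adjusted p = 0.0414). Leaving out the Cugbp1 siRNA array keeps the difference of Sgms2 at 0.16 and changes only its error. Celf1 itself was lower under Mbnl1 siRNA (−0.59 ± 0.09, limma adjusted p = 0.000931), at 72.4%, 65.4% and 61.5% of control by its brighter probe set. By the other it was at 78.9%, 53.5% and 49.2% (−0.76, SD 0.36 over 3 times). Whether the level of Celf1 bears on that of the 4 was not tested.

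**Figure D4:**
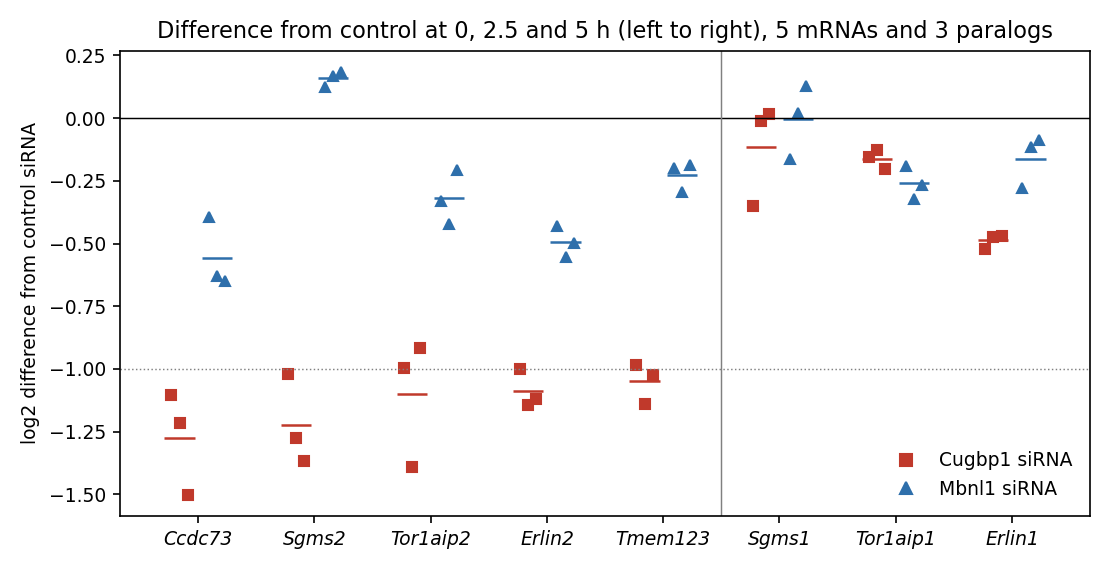
Log2 difference from the control array of the same time under Cugbp1 siRNA (squares) and Mbnl1 siRNA (triangles), for the 5 mRNAs and, right of the vertical line, 3 paralogs; points run from 0 to 5 h and short bars are means over 3 times. The dotted line is 2-fold lower. Both comparisons use the same control arrays. Mbnl1 siRNA lies below 0 for Ccdc73, Tor1aip2, Erlin2 and Tmem123 and above it for Sgms2.

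For the decay under Mbnl1 siRNA, 0 of the 5 differed from control in hourly slope by limma; in the same fit 2 of 9864 genes (0.0203%) passed. The slope differences were −0.051 ± 0.024 per h for Ccdc73 (unadjusted p = 0.0703), 0.025 ± 0.043 for Tor1aip2, −0.014 ± 0.018 for Erlin2, 0.012 ± 0.018 for Sgms2 and 0.002 ± 0.020 for Tmem123, so no member had an unadjusted p under 0.05. The fit has 2 residual degrees of freedom, and at this precision a slope difference of the size of these errors was not detectable.

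The differences of the paralogs under Cugbp1 siRNA were smaller than those of the members. This follows from the selection, which took the members for their large falls, and nothing is read from it. Erlin1, the partner of Erlin2, was lower under Cugbp1 siRNA (−0.49 ± 0.04, limma adjusted p = 0.000529), with 69.7%, 72.1% and 72.2% of control at 0, 2.5 and 5 h, and was called with any array left out. Sgms1, the sphingomyelin synthase of the Golgi, was at 78.5%, 99.2% and 101% of control, a difference of −0.12 ± 0.07 that did not pass (adjusted p = 0.298). Tor1aip1, which encodes LAP1, the torsin activator of the nuclear envelope, was lower (−0.16 ± 0.04, adjusted p = 0.0342). Its call was kept in 3 of 9 fits with 1 array left out (adjusted p up to 0.140). In these and later counts of 9 fits under Cugbp1 siRNA, those without an Mbnl1 siRNA array keep the difference and change only its error.

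The paralogs also changed with time. Over 5 h Sgms1 fell by 0.57 ± 0.07 (limma adjusted p = 0.000219) and Tor1aip1 by 0.12 ± 0.04 (adjusted p = 0.0384), a call lost in 7 of 9 fits with 1 array left out (adjusted p up to 0.151). Erlin1 rose by 0.17 ± 0.04 (adjusted p = 0.00944), which became −0.06 with equal ribosomal protein medians (adjusted p = 0.330). Under Mbnl1 siRNA Tor1aip1 (−0.26 ± 0.04, adjusted p = 0.00124) and Erlin1 (−0.16 ± 0.04, adjusted p = 0.0164) were lower, and Sgms1 differed by −0.005 ± 0.070. The Erlin1 call was lost without the 0 h array of control (adjusted p = 0.0753) or of Mbnl1 siRNA (adjusted p = 0.0595).

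Related genes were examined as lists under Cugbp1 siRNA, where 8.67% of all genes were lower and 10.5% higher. Of 32 tested genes of sphingolipid metabolism other than Sgms2, 4 were lower and 2 higher, and their median was −0.06 beside 0.011 for all genes. Samd8, the third member of the sphingomyelin synthase family, which makes ceramide phosphoethanolamine, differed by −0.34 ± 0.04 (limma adjusted p = 0.00126) and by −0.32, −0.35 and −0.35 at the 3 times. Ugcg, which makes glucosylceramide (−0.21), Degs1, the last enzyme of ceramide synthesis (−0.20), and the glycolipid carrier Gltp (−0.18) were the other 3 lower ones. Smpdl3b (0.19) and Sgpl1 (0.11) were higher. Samd8 and Degs1 were called with any 1 array left out. Of those 9 fits Smpdl3b was called in 4 (adjusted p up to 0.135), Ugcg in 3 (up to 0.161), Gltp in 1 (up to 0.192) and Sgpl1 in 0. The fits without an Mbnl1 siRNA array leave these differences unchanged, so they do not probe them. Without any 1 of the 6 control or Cugbp1 siRNA arrays, 2 or 3 genes of the list were called lower and 0 or 1 higher.

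Of 29 genes of torsins and the nuclear envelope other than Tor1aip2, 5 were lower and 2 higher, with a median of −0.07. Tor1a, the torsin ATPase that LULL1 activates, differed by −0.41 ± 0.06 (limma adjusted p = 0.00445), with −0.24, −0.50 and −0.51 at the 3 times. Nemp1, an inner nuclear membrane protein, was at −0.31, Tor3a at −0.20, the lamin B receptor gene Lbr at −0.17 and Tor1aip1 at −0.16, while the lipin gene Lpin1 (0.27) and Lmnb1 (0.18) were higher. Tor1a, Nemp1 and Lpin1 were called with any array left out, and Tor3a, Lbr and Lmnb1 in 3 or 4 of 9 fits. Without any 1 of the 6 control or Cugbp1 siRNA arrays, 2 or 3 of the list were lower and 1 or 2 higher.

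Of 41 genes of endoplasmic reticulum-associated degradation and sterol sensing other than Erlin2, 2 were lower and 4 higher, with a median of 0.04. The lower ones were Erlin1 and Insig2 (−0.28 ± 0.05). Its relative Insig1 was higher (0.31 ± 0.04, limma adjusted p = 0.00360); both encode proteins that hold the sterol sensor SCAP in the endoplasmic reticulum. The ubiquitin ligase gene Rnf5 (0.34 ± 0.04, adjusted p = 0.00126), the inositol trisphosphate receptor gene Itpr2 (0.22) and Scap (0.14) were the other higher ones. Rnf5 and Insig1 were called with any array left out, and Insig2 in 7, Itpr2 in 5 and Scap in 3 of 9 fits. Without any 1 of the 6 control or Cugbp1 siRNA arrays, 1 to 3 of the list were lower and 2 or 3 higher.

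Of 5 tested sialomucins and mucin-type surface proteins other than Tmem123, Podxl (−0.24 ± 0.04, limma adjusted p = 0.00757) and Cd34 (−0.22 ± 0.05, adjusted p = 0.0170) were lower. Podxl was called with any array left out and Cd34 in 6 of 9 fits. Of 7 SPFH-domain genes other than Erlin2, Erlin1 was lower and 0 were higher. None of the 5 tested CELF and MBNL genes other than Celf1 and Mbnl1 was called by limma.

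**Figure D5:**
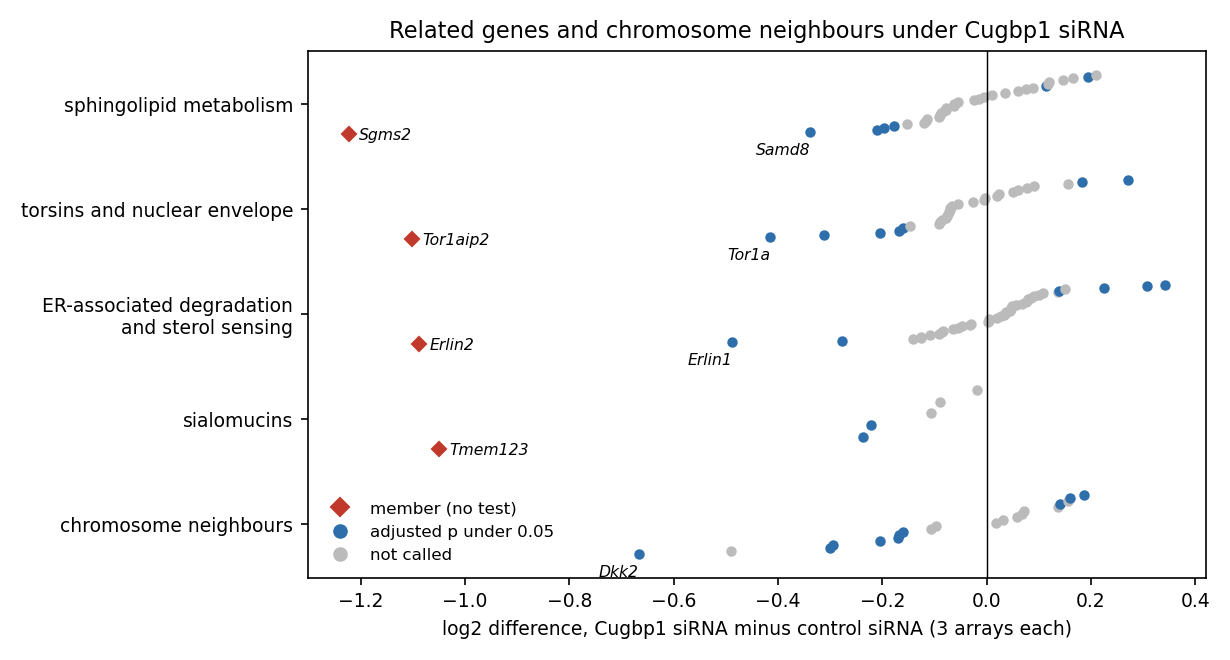
Log2 difference between Cugbp1 siRNA and control (horizontal axis, mean of 3 arrays each) for the genes of 4 related-gene lists and the chromosome neighbours of the 5; each dot is 1 gene, raised in order of its value within a row. Dark dots have a limma adjusted p under 0.05, and diamonds are members, which were not tested. The lists spread around 0 between −0.49 and 0.34, the neighbours reach −0.67 (Dkk2), and the 4 members shown lie at −1.05 to −1.22.

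Under Mbnl1 siRNA the same lists were called more often, as were all genes (31% lower and 24% higher). Of the nuclear envelope list 18 of 29 were lower and 1 higher, led by Nemp1 (−0.88 ± 0.05) and the nurim gene Nrm (−0.68 ± 0.04), with Lpin1 at 0.45. The list's median was −0.20 beside −0.02 for all genes, and 16 to 18 were lower with any array left out. Of the sphingolipid list 10 of 32 were higher and 8 lower, from the sphingosine kinase gene Sphk1 (1.10 ± 0.10, limma adjusted p = 5.7e-05) to the ceramide kinase gene Cerk (−0.68 ± 0.10); the number lower was 4 without the array at 0 h of control or at 2.5 or 5 h of Mbnl1 siRNA, and 5 without the 2.5 h array of control or of Cugbp1 siRNA. Of the degradation and sterol list 17 of 41 were higher and 8 lower, with Rnf5 at 0.59 ± 0.04 and Rnf145, a ligase gene, at −0.52 ± 0.05; 5 were lower without the 0 h array of Mbnl1 siRNA or any 1 control array. Of the SPFH genes 5 of 7 were lower, among them the flotillins Flot1 (−0.32) and Flot2 (−0.34), and 1, Stom, was higher (0.15); 3 were lower without the control array at 0 h. Of 5 sialomucins Cd34 (0.50) and Pdpn (0.16) were higher and Podxl (−0.12) and Cd164 (−0.11) lower, and both lower calls were lost without, among others, the control array at 2.5 h. Of 5 CELF and MBNL genes other than the targets, 3 were lower and 1, Mbnl2, was higher (0.13). The higher call was lost without any 1 control array or the Mbnl1 siRNA array at 2.5 h. It was also lost with no filter or equal ribosomal protein medians. Without the control array at 2.5 or 5 h, 2 were lower.

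At 5 h against 0 h, the sphingolipid list had 16 higher and 7 lower of 32, the nuclear envelope list 9 and 12 of 29, and the degradation list 16 and 11 of 41. With equal ribosomal protein medians these were 1 and 18, 0 and 21, and 1 and 25. The sialomucins had 4 higher and 0 lower of 5 and the SPFH genes 6 and 0 of 7, which became 0 and 1 for each on the ribosomal scale. The degradation list had 7 lower without the Mbnl1 siRNA array at 0 or 5 h; with any 1 array left out the nuclear envelope list had 6 to 8 higher and 8 to 12 lower, and the sphingolipid list 14 or 15 higher and 6 to 8 lower. The 2 largest falls of each list were Tor4a, a torsin gene (−1.75), and Lemd3 (−1.07) for the nuclear envelope, Rnf139 (−1.24) and the ligase gene Syvn1 (−1.17) for degradation, and the sphingosine kinase genes Sphk1 (−0.85) and Sphk2 (−0.66) for sphingolipids.

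The 2 nearest tested genes on each side of a member, in the gene order of RefSeq (assembly GRCm38.p6), gave 20 neighbours. Under Cugbp1 siRNA 7 were lower and 3 higher, with a median of −0.04, where 8.67% of all genes were lower and 10.5% higher. Of the 7, Tor1aip1 and Tor3a are also counted in the nuclear envelope list. Next but one to Sgms2 among tested genes lay Dkk2, an inhibitor of Wnt signalling, with −0.67 ± 0.08 (limma adjusted p = 0.00127) and −0.68, −0.66 and −0.66 at 0, 2.5 and 5 h. Cyp2u1 and Papss1, directly beside Sgms2 among tested genes, were at 0.02 and 0.16. Prrg4, directly beside Ccdc73, was at −0.30 ± 0.03 (adjusted p = 0.00131), and Eif3m on its other side at 0.16 (adjusted p = 0.116). Dkk2 and Prrg4 were called with any array left out, and Mmp10, the nearest tested gene before Tmem123, in 4 of 9 fits. The neighbours of Erlin2 lay between −0.17 (Zfp703) and 0.07, and those of Tor1aip2 between −0.20 (Tor3a) and 0.14. Mmp10 differed by −0.29 ± 0.08 (adjusted p = 0.0425) and Mmp12 by −0.49 ± 0.17 (adjusted p = 0.0849), while under Mbnl1 siRNA they were higher by 2.54 ± 0.08 and 2.57 ± 0.17. Without the 2.5 h array of control or of Cugbp1 siRNA, 2 neighbours were lower and 0 higher; without the 0 h array of either, 2 were lower and 1 or 2 higher; and without the 5 h array of either, 4 or 5 were lower and 0 higher.

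Over the 9 arrays, Ccdc73 and Erlin2 followed each other most closely among the 5 (Pearson r = 0.990 of log2 levels), and Erlin2 and Sgms2 least (r = 0.782). These correlations are over 9 arrays that share siRNA and time groups, and the low Cugbp1 siRNA arrays raise all of them. Among all tested genes the one most like Ccdc73 was Erlin2, followed by Nelfcd (0.988) and Slc25a24 (0.973). Erlin2 was most like Nelfcd (0.993), a subunit gene of the negative elongation factor, which was itself at −0.57 under Cugbp1 and −0.24 under Mbnl1 siRNA. The nearest to Sgms2 were Ehd4 (0.993), Pip4k2a (0.983) and Chst11 (0.982), those to Tmem123 were Lmbrd2 (0.988), Prkci (0.988) and Myadm (0.981), and those to Tor1aip2 were Ptpn21 (0.969), Celf1 (0.969) and Krt80 (0.962). The genes nearest to Sgms2 were picked by this correlation over the same arrays, so a pattern like that of Sgms2 follows from the choice. Ehd4, Pip4k2a and Chst11 were at −0.92, −0.54 and −0.57 under Cugbp1 siRNA and above control, by 0.07, 0.16 and 0.23, under Mbnl1 siRNA.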

How the data were processed

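Total RNA of C2C12 cells was measured on 9 arrays, grouped by siRNA and time from the labels. Extraction used an RNeasy kit, and 100 ng of RNA went into labelling for Affymetrix whole-transcript arrays, per the labels' protocols. Per the submitters' processing notes, the authors used RMA and Affymetrix Expression Console; no source used here gives versions or a genome build. What was deposited is intensity on the linear scale, as read from the values, and log2 was taken here. RMA gives arrays a common distribution, so changes are relative and not absolute amounts.

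Platform annotation gave 1 symbol for 21789 probe sets, several for 1621 and none for 12146. Named probe sets with a mean log2 of at least 7.385 (their 50th percentile) were kept, and the brightest represented each gene. The filter is a median and not a measured background, and precision is limited by the number of arrays. limma 3.58.1 in R 4.3.3 (lmFit, eBayes) fitted siRNA and time as factors over all 9864 genes (4 residual degrees of freedom), and for decay also a line in hours per siRNA (2 residual). A call is a Benjamini-Hochberg adjusted p below 0.05. The fits were tested on simulated data. Named were the members with all probe sets, the siRNA targets, 3 paralogs, called genes of the related-gene lists, neighbours, the 3 most alike genes per member and the genes at the edge of the selection; markers of other cell types were set beside them. Alternatives were a lower filter or none, the mean of probe sets, equal ribosomal protein medians, an intensity trend in the prior and leaving out each array. Without an array of an siRNA that a comparison of siRNAs does not use, the difference is kept and only its error and p-value change. The same holds for a time that a comparison of times does not use. The members and lists were chosen with earlier results of these data known. Promoter windows are from RefSeq.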

Additional observations from a re-analysis of the deposited data

How the results depend on the processing

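Each setting was changed alone. The count of genes called under Cugbp1 siRNA was 1894, and 969 with no filter; leaving out 1 array gave 742 to 2027, with the lowest counts without the 2.5 h arrays of control and of Cugbp1 siRNA (742 and 759). The number of the 5 called at 2.5 h was 1, and it was 0 with a filter at the 25th percentile or none and 2 with the mean of probe sets or an intensity trend (Tmem123 and Tor1aip2) or with equal ribosomal protein medians (Sgms2 and Tor1aip2); it was 0 to 1 with 1 array left out. At 2.5 h, 2283 of 9864 genes were called higher and 2391 lower. These counts were 2598 and 2445 with an intensity trend, and 212 and 3634 with equal ribosomal protein medians. They were 2279 and 2375 of 9786 with the mean of probe sets. They were 2199 and 2559 of 14953 with the 25th percentile filter, and 1757 and 2372 of 19938 with none. At 5 h the number of the 5 called was 4, where 3514 genes were higher and 3232 lower. With equal ribosomal protein medians it was 2, where 345 were higher and 5916 lower. On that scale 5 h changes turned sign for Erlin2 (−0.0593), Tmem123 (−0.0254) and Erlin1 (−0.0569), and so did the 2.5 h change of Tmem123 (−0.005092); the share of higher among calls went from 52.1% to 5.51% at 5 h and from 48.8% to 5.51% at 2.5 h. Genes called for decay under Mbnl1 siRNA numbered 2, and 0 with either other filter, 20 with the mean of probe sets, 154 with equal ribosomal protein medians and 192 with an intensity trend; leaving out 1 array gave 0 to 203. None of the 5 was among them in any of these fits. The difference of Tor1aip2 under Cugbp1 siRNA was −0.48 with the mean of its probe sets. Except for the scale and the mean of probe sets, the cause of these shifts was not tested. Time was a factor in the model, so siRNAs were compared within times. The differences of the other 4 under Cugbp1 siRNA stayed between −1.36 and −1.01 under all alternatives run. The selection used these same differences, so the range is a description only. Each of the 4 has a single probe set, so the filters, the mean of probe sets and the trend could not move them.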
